A study of Mus musculus with 2 samples.

Results

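The miR-148 family, which includes miR-152, and the miR-130 family, which includes miR-301, are 2 groups of microRNAs (miRNAs) whose targeting regions overlap, and their short fragments were followed here in mouse embryonic stem cells. The members were taken by name: Mir148a, Mir148b and Mir152 in the first family, and Mir130a, Mir130b, Mir301 and Mir301b in the second. They are 7 of 2200 annotated miRNA genes, of which 432 had at least 1 read. A read was given to a member when its whole sequence, of 15 to 17 nucleotides (nt), was found without a mismatch on the sense strand of the member's hairpin. On this rule 6 of the 7 members had reads, and together they held 1693 reads in the vehicle library and 376 in the inhibitor library.

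The cells were J1, an embryonic stem cell line of strain 129S4/SvJae adapted to gelatin, and the medium of both groups held a serum replacement and leukaemia inhibitory factor, which holds mouse stem cells undifferentiated. Cells of the SB431542 group had received 3 µM of this compound, which inhibits the type I receptor kinases for activin, Nodal and TGF-beta, for 24 h, and cells of the DMSO group the same volume of solvent for 24 h. Each group had 1 library, so no p-values could be computed, and the treatment and the library cannot be told apart. Reads analysed here end at 17 nt, so every value describes 5′ parts or other pieces of a miRNA and not its full length, which was not analysed here.

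A miRNA hairpin is cut out of a longer transcript by Drosha and opened by Dicer, which frees a duplex of a 5p and a 3p arm and leaves a terminal loop. An Argonaute protein keeps an arm of the duplex and uses bases 2 to 8 from its 5′ end, the seed, to find messenger RNAs. Members of a family share the seed and so largely share targets, while the bases after it differ. The miR-148 family is known for repressing the DNA methyltransferases Dnmt1 and Dnmt3b, and miR-148a is among the most abundant miRNAs of liver. The miR-130 family is known from blood vessels, blood cell formation and fat cell differentiation, where it represses Pparg.

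The mature 3p sequences show what the members share and where they can be told apart. They are RefSeq sequences of build GRCm38.p6, printed 5′ to 3′ with the seed in capitals.
miR-148a-3p: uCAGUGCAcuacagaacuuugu
miR-148b-3p: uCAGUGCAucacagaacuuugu
miR-152-3p: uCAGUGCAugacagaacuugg
miR-130a-3p: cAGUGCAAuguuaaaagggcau
miR-130b-3p: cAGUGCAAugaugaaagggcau
miR-301a-3p: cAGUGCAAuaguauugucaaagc
RefSeq hairpins were found for all 7 members and were identical to the GENCODE ones, and 13 mature sequences were matched. For Mir301b the matched sequence was miR-301b-5p.

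Positions are counted from 1 at the mature 5′ end. Over the first 17 bases, miR-148a-3p differs from miR-148b-3p by C9U and U10C and from miR-152-3p by C9U and U10G. A single base, C10G, separates miR-148b-3p from miR-152-3p. In the other family miR-130a-3p differs from miR-130b-3p by U11A and A13G, and from miR-301a-3p by 6 bases from G10A to G17U. Each fragment of 15 nt or more that starts at the mature end therefore reaches past the bases that set the miR-148 members apart. The same holds for miR-130a-3p against miR-130b-3p. Of the bases that set miR-301a-3p apart, such a fragment covers at least the first, at base 10. None of the 20 distinct member sequences was found in a second miRNA hairpin, and 1 of them, with 1 read, also occurred in another gene. No sequence was antisense to a member hairpin (0 reads in each library), a measure of chance matches, against 10890 and 4445 reads antisense to any annotated miRNA hairpin.

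The longest fragments counted, of 17 nt, are shown for the miR-148 family because they hold the 15 and 16 nt forms within them. Bases 9 and 10, where the members differ, are in capitals.
Mir148a: tcagtgcaCTacagaac
Mir148b: tcagtgcaTCacagaac
Mir152: tcagtgcaTGacagaac
The 17 nt fragments of miR-130a-3p and miR-130b-3p are shown for comparison, without capitals.
Mir130a: cagtgcaatgttaaaag
Mir130b: cagtgcaatgatgaaag

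The hairpins lie at 6 separate loci (GRCm38). Mir148a is on the minus strand at chr6:51269812-51269910 and Mir130a on the minus strand at chr2:84741115-84741178, neither within a gene on its strand. Mir148b lies at chr15:103285125-103285221 in an intron of Copz1, and Mir152 at chr11:96850393-96850465 in an intron of Copz2, both on the plus strand. Copz1 and Copz2 encode the zeta subunits of the COPI vesicle coat, so these 2 hairpins have paralogous hosts. Mir301 lies at chr11:87113004-87113089, plus strand, in an intron of Ska2, a gene of the spindle and kinetochore complex. Mir130b (chr16:17124061-17124142) and Mir301b (chr16:17124400-17124496) share an intron of 2610318N02Rik on the minus strand, with 257 bases between the hairpins.

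The DMSO library held 990296 reads of 15 to 17 nt, 78127 of them on miRNA hairpins, and the SB431542 library 517535 and 21921. Levels are given as reads per 1000000 miRNA reads (RPM), so that 3 reads, the limit that a count of 0 allows, correspond to 38.4 RPM with DMSO and 137 RPM with SB431542. Intervals are 95% exact binomial (Clopper-Pearson) or conditional binomial ones and cover counting error only, since amplified reads are not independent molecules. Marker miRNAs were checked against the label: 7 of 9 hairpins of the stem-cell miR-290 to miR-295 cluster had reads, summing to 506022 RPM with DMSO and 479631 RPM with SB431542. Nearly all of this sum was 1 arm, miR-293-3p, with 498214 and 472561 RPM. None of 5 hairpins of the miR-302 cluster of primed pluripotent cells had a read. Of 9 fibroblast or feeder miRNAs 7 had reads, at 1133 and 1004 RPM in sum, with Mir214 and Mir145a at 0. The 11 let-7 hairpins of differentiated cells summed to 38 and 14 reads, and of 4 blood cell miRNAs only Mir150 had reads, 6 and 2. Any part of these other cell types in the values below was not tested.

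In both libraries the order of the members was the same. Mir148b was first, with 957 reads (12249 RPM, 11490 to 13045) with DMSO and 237 reads (10812 RPM, 9485 to 12270) with SB431542. Mir148a had 428 reads (5478 RPM, 4973 to 6021) and 66 reads (3011 RPM, 2329 to 3829). Its intervals in the 2 libraries did not overlap, while those of Mir148b did. Overlap was not counted for other miRNAs, so this was not shown to be particular to Mir148a. By the log2 ratio of SB431542 to DMSO, treated below, the interval lay below 0 for 10 of 45 arms, or 22.2%. Mir152 had 170 reads (2176 RPM, 1861 to 2528) and 32 reads (1460 RPM, 999 to 2060).

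The miR-130 members were lower. Mir130a had 90 reads (1152 RPM, 926 to 1416) with DMSO and 25 reads (1140 RPM, 738 to 1683) with SB431542. Mir130b had 47 reads (602 RPM, 442 to 800) and 16 reads (730 RPM, 417 to 1185). Neighbours in this order had intervals that did not overlap with DMSO. With SB431542 the intervals of Mir152 and Mir130a overlapped, as did those of Mir130a and Mir130b. Mir301 had 1 read with DMSO and 0 with SB431542, and Mir301b had 0 in each, at or under the limit of 3 reads. The loci of Mir301b and Mir130b, which share an intron, thus gave 0 and 63 reads over both libraries.

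**Figure D1:**
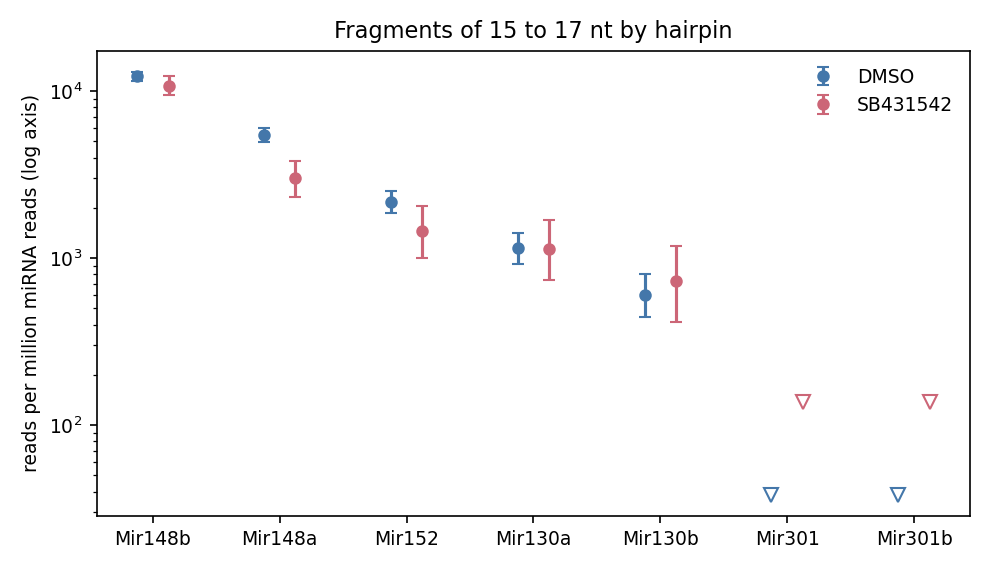
Reads per 1000000 miRNA reads (log axis) of the 7 hairpins in the DMSO and SB431542 libraries, 1 library each, with 95% counting intervals as bars. Open triangles stand at the level of 3 reads for hairpins with 3 reads or fewer. The Mir148a points lie apart (5478 and 3011 RPM), while the bars of Mir148b, Mir130a and Mir130b overlap. Overlap was not counted for other miRNAs.

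The miR-148 family as a whole was lower with SB431542, and the miR-130 family was not lower in RPM. Summed over its 3 members, the miR-148 family had 19904 RPM with DMSO, 1.99% of miRNA reads, and 15282 RPM with SB431542, 1.53%. The log2 ratio of SB431542 to DMSO, computed with a pseudocount of 0.5 read, was -0.38 (-0.56 to -0.21). For the miR-130 family the levels were 1766 and 1870 RPM, and the log2 ratio was 0.09 (-0.46 to 0.59). The log2 difference between the families was 0.46 (-0.11 to 1.01). That interval includes 0, so the families were not shown to differ.

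The scale moved both families. Hairpin reads made up 7.89% of the DMSO reads of this length and 4.24% of the SB431542 reads, which lowers the median log2 ratio of the arms by 0.90 when levels are taken per 1000000 reads of 15 to 17 nt. On that scale the miR-148 family stood at -1.28 (-1.45 to -1.11), 2.42-fold lower, and the miR-130 family at -0.80 (-1.35 to -0.30). Within-family shares and differences between members do not depend on the scale.

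An arm was described when it had at least 50 reads over both libraries, and arms were assigned by the middle of the hairpin. Of 45 described arms, 5 were members, the 3p arms of Mir148a, Mir148b, Mir152, Mir130a and Mir130b. In RPM, 0 of these 5 were at least 2-fold higher with SB431542, against 3 of the 45, or 6.67%. Likewise 0 of 5 were at least 2-fold lower, against 2 of the 45, or 4.44%. The interval lay below 0 for 2 of the 5 members and for 10 of the 45 arms, or 22.2%. Further arms had an interval above 0, among them miR-382-5p (0.09 to 0.22) and miR-27a-3p (0.35 to 0.77), and no member did. Intervals apart from 0 were thus common in both directions. Per 1000000 reads of 15 to 17 nt, 3 of 5 members were at least 2-fold lower, against 15 of 45 arms, or 33.3%, and 0 of 5 were at least 2-fold higher, where 0% of the 45 were. The median log2 ratio of the 5 member arms was -0.18 in RPM and -1.08 on the second scale, beside 0.13 and -0.77 for all 45.

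By member, miR-148a-3p had the lowest ratio. Its log2 ratio was -0.85 in RPM (-1.26 to -0.49) and -1.75 per 1000000 reads of 15 to 17 nt (-2.16 to -1.38), the 4th lowest of the 45 arms. For miR-152-3p the values were -0.56 (-1.17 to -0.02) and -1.46 (-2.07 to -0.92), the 6th lowest. The interval of miR-152-3p lay below 0 in 11 of 17 alternatives, which include other scales than RPM. For the members of this family some of these could hardly change it. The pseudocount of 5 reads leaves the interval as it is. Shared sequences left out, reads inside mature arms and the Mir130b loop left out change only the miRNA total. The interval of miR-152-3p included 0 with a GC correction (-0.95 to 0.06), from 16 nt (to 0.06), at 17 nt only (to 0.40), with the DMSO library thinned (to 0.13), without its leading sequence (to 0.20) and for distinct sequences. The most abundant member, miR-148b-3p, stood at -0.18 (-0.39 to 0.03) and -1.08 (-1.29 to -0.87), the 14th lowest. Its interval lay below 0 in 7 of 17 alternatives, among them edgeR TMM factors (-0.45, -0.66 to -0.24), DESeq2 size factors (-0.43, -0.64 to -0.22) and reads from 14 nt (-0.33, -0.49 to -0.18). The value from 14 nt includes a 14 nt sequence, with 895 and 173 reads, that also occurs in 2 pseudogenes. All 3 members of the family thus lay below the median of the 45 arms.

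In the miR-130 family the ratios lay nearer the other arms. The log2 ratio of miR-130a-3p was 0.01 in RPM (-0.72 to 0.64) and -0.89 on the second scale (-1.61 to -0.26). The 3p arm of Mir130b, its loop fragment included, had 46 and 16 reads and a log2 ratio of 0.34 (-0.61 to 1.16), or -0.56 (-1.51 to 0.26) on the second scale. Both intervals of this arm included 0.

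**Figure D2:**
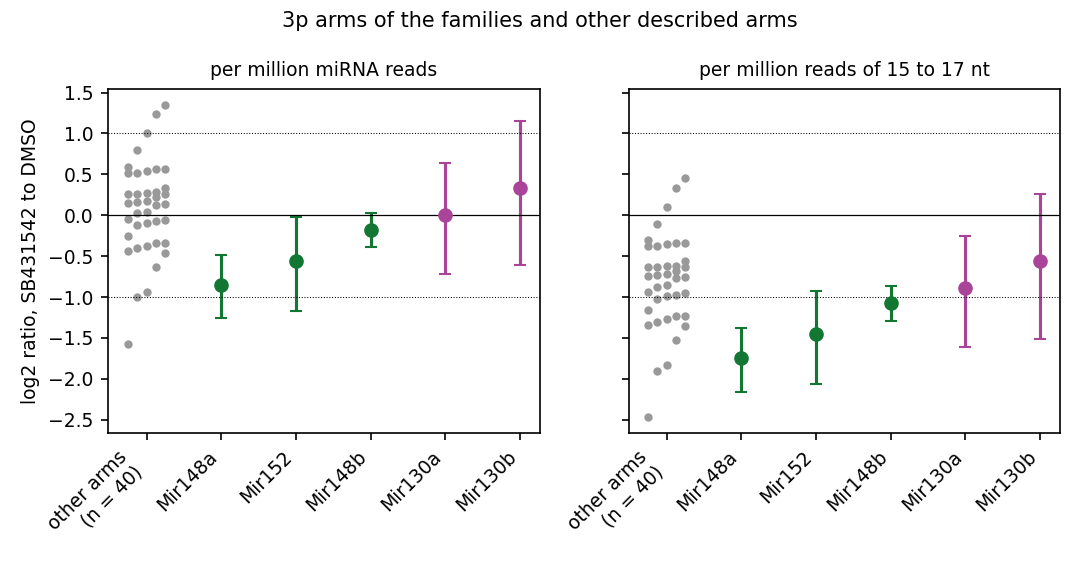
Log2 ratio of SB431542 to DMSO for the 5 described 3p arms of the families (miR-148 in green, miR-130 in purple, bars: 95% counting intervals) beside the 40 other described arms (grey, spread sideways for view), in RPM at the left and per 1000000 reads of 15 to 17 nt at the right. Dotted lines mark 2-fold; Mir148a lies at -0.85 and -1.75, and every member moves down by the same amount between the scales.

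The make-up of the miR-148 family differed between the libraries. Mir148a supplied 27.5% of the family's reads with DMSO (25.3 to 29.8) and 19.7% with SB431542 (15.6 to 24.4). Mir148b supplied 61.5% (59.1 to 64.0) and 70.7% (65.6 to 75.6). In neither case did the intervals overlap. Mir152 supplied 10.9% (9.42 to 12.6) and 9.55% (6.63 to 13.2), which overlap. Reads of Mir148b per read of Mir148a were 2.24 with DMSO and 3.59 with SB431542.

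Of the 4 pairs of described members compared within a family, 1 had an interval apart from 0. Pairs of other arms were not compared, here or for the shares above, so this gap was not shown to be particular to the family. Mir148a was lower relative to Mir148b by a log2 difference of -0.68 (-1.13 to -0.25). The leading fragments of these 2 members have the same length and GC content, 43.8% at 16 nt and 47.1% at 17 nt, and differ by C9U and U10C only. For Mir148a against Mir152 the difference was -0.29 (-0.98 to 0.42), and for Mir152 against Mir148b it was -0.40 (-1.03 to 0.20). For Mir130a against Mir130b, whole hairpins, it was -0.29 (-1.41 to 0.85). The last 3 intervals include 0 and are wide, so these members were not shown to differ or to be alike. Mir130a supplied 65.2% and 61.0% of its family's reads and Mir130b 34.1% and 39.0%.

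The ratio of Mir148a was lower than that of Mir148b at each of their 3 fragment lengths, with wide intervals. At 17 nt, tcagtgcaCTacagaac of Mir148a had 203 reads with DMSO and 29 with SB431542, a log2 ratio of -0.95 (-1.59 to -0.41). Its 16 nt form had 202 and 36 reads, at -0.64 (-1.21 to -0.14). The 15 nt form had 22 reads and 1, at -2.07 (-7.99 to 0.003). The intervals of the 16 and 17 nt forms lay below 0, and that of the 15 nt form included 0.

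For Mir148b, tcagtgcaTCacagaac had 336 and 86 reads, a log2 ratio of -0.13 (-0.49 to 0.21). The 16 nt form had 413 and 100 reads, at -0.21 (-0.54 to 0.11), and the 15 nt form 207 and 51, at -0.18 (-0.66 to 0.26). In RPM each of these 3 intervals included 0. At each length the intervals of Mir148a and Mir148b overlapped. The log2 difference between them at 17 nt alone was -0.84 (-1.55 to -0.16). It was not computed at 16 or 15 nt alone, so a difference was not shown at those lengths. Mir152 had 65 and 14 reads at 17 nt (tcagtgcaTGacagaac), 77 and 14 at 16 nt, and 28 and 4 at 15 nt.

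Base 10 alone separates Mir148b from Mir152, so fragments of 15 to 17 nt with the Mir148b sequence at all other positions, T at base 9 included, were counted by their base 10. The base was C in 1193 reads over both libraries, G in 202, T in 2 and A in 0. Reads with exactly 1 mismatch to a leading fragment of the 5 members numbered 9 with DMSO and 2 with SB431542, against 2069 exact reads, with sequences that belong to another member left out. With T at base 9, the C and G counts are those of Mir148b and Mir152, and T and A at base 10 give the sequence of no member.

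The fragments lay almost wholly on the 3p arm and started at its first base. Of 2069 member reads, 2 were on a 5p arm, or 0.0967%: 1 of Mir130b and the 1 read of Mir301, both with DMSO. On all other miRNA hairpins 16.5% of reads were on the 5p arm, or 33.1% without the very abundant miR-293-3p. This pool is weighted by abundant arms: miR-382-5p alone gave 11205 of its 16121 reads on a 5p arm. A share by hairpin was not computed, so the members were not shown to be unusual in this. Reads of the miR-148 family started at mature base 1 in 1553 of 1555 cases with DMSO, or 99.9% (99.5 to 99.98), and in 335 of 335 with SB431542. The other 2 were single reads, 1 base before the mature start of Mir148a and at base 3 of Mir148b. Over 36 other described arms with a RefSeq mature sequence the median share was 96.3%, from 0 to 100%, and 21 of the 36 were at 95% or more.

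In the miR-130 family the start was less uniform, through Mir130b. Of the reads on mature arms, 106 of 118 with DMSO, or 89.8% (82.9 to 94.6), and 31 of 32 with SB431542 started at base 1. Mir130a had 89 of 90 and 25 of 25 there. Mir130b had 16 of 27 with DMSO, or 59.3% (38.8 to 77.6), and 6 of 7 with SB431542. The rest of its 3p reads, 11 and 1, were a single sequence that starts at base 2 and so has its seed moved by 1 base:
Mir130b from base 1: cagtgcaatgatgaaag
Mir130b from base 2: agtgcaatgatgaaagg
The start at base 2 had 1 read in Mir130a with DMSO and 0 with SB431542.

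Mir130b also gave the only loop fragment of the families. Its most abundant sequence, with 20 reads with DMSO and 9 with SB431542, fills exactly the 16 bases between the end of its 5p and the start of its 3p mature sequence, so it is shown here:
Mir130b loop: gtgggcctctgggaag
The sequence matched no other gene, and its GC content was 68.8%. Its log2 ratio was 0.72 (-0.64 to 1.88). Of 206 hairpins with 15 to 17 bases between 2 RefSeq mature arms, 2 had a read of exactly that loop: Mir130b with 29 over both libraries and Mir199a-1 with 1. The loops of Mir130a, Mir148a, Mir152 and Mir301, which are 15 to 17 nt long, had 0 reads in each library, and that of Mir148b, at 13 nt, was too short to be counted here. The midpoint rule counts the loop fragment with the 3p arm of Mir130b. Without it, 33 reads of that arm remained, under the 50-read minimum. The log2 ratio of the arm was then 0.01 (-1.51 to 1.18), and that of the miR-130 family -0.03 (-0.66 to 0.53). The log2 difference of Mir130a from Mir130b then changed sign, to 0.10 (-1.35 to 1.705), and its interval still included 0.

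**Figure D3:**
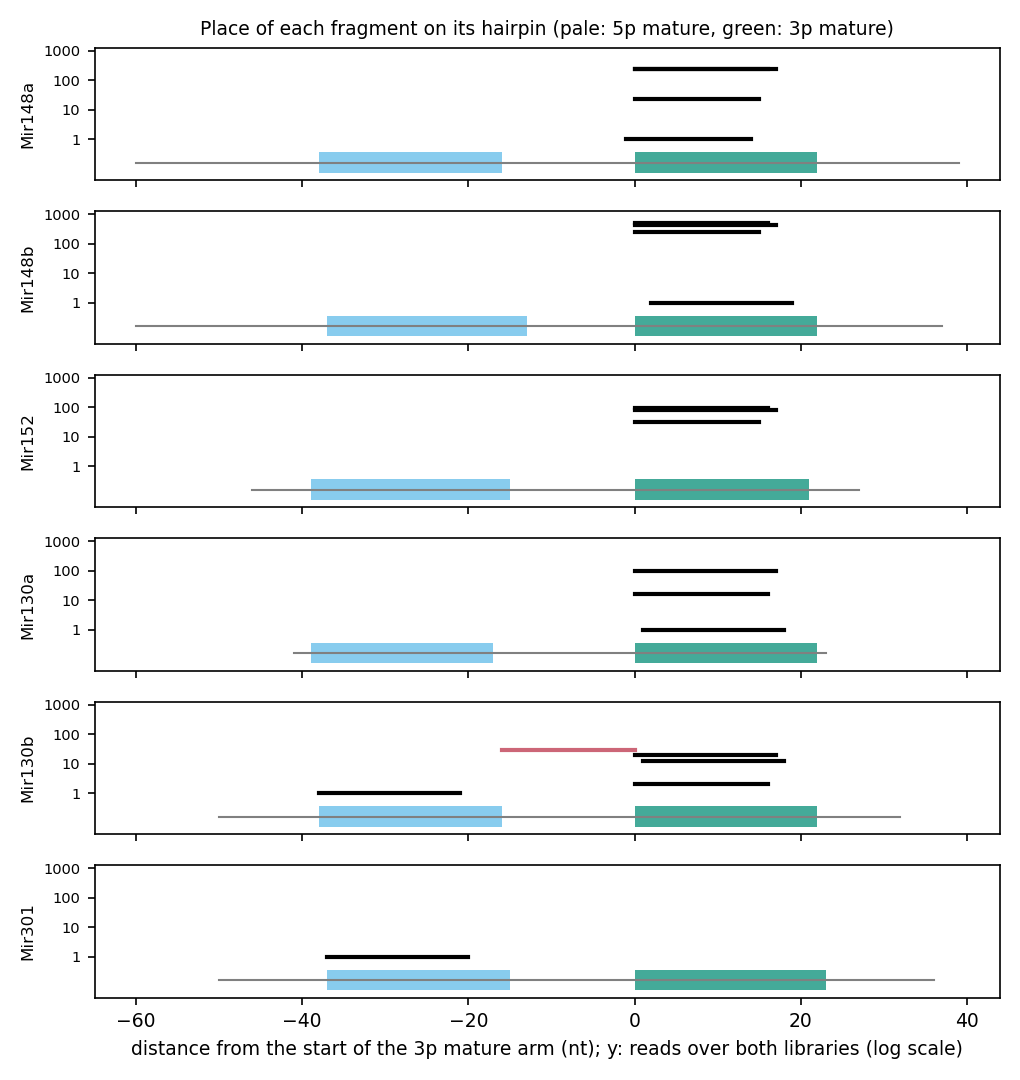
Place of every fragment (lines) on the hairpins of the 6 members with reads, by distance in nt from the start of the 3p mature arm, with its reads over both libraries on the log-scaled y axis. Boxes mark the 5p (pale blue) and 3p (green) mature arms; lines begin at 0 for nearly all reads of Mir148a, Mir148b, Mir152 and Mir130a, and the red line of Mir130b (29 reads) fills the gap between the boxes.

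Fragment lengths differed between the families in each library. In the miR-148 family 16.6% of reads with DMSO and 16.7% with SB431542 were 15 nt long. In the miR-130 family the reads of 15 nt were 0 of 138 and 0 of 41, where the upper limit of the exact interval was 2.64% and 8.60%. Reads of 17 nt made up 38.9% and 38.5% of the miR-148 family and 74.6% and 70.7% of the miR-130 family. On all other miRNA arms together 33.1% and 32.1% of reads were 15 nt and 25.4% and 26.7% were 17 nt. That pool is weighted by its most abundant arms, miR-293-3p (49283 reads, 30.2% of 15 nt) and miR-25-3p (13316 reads, 85.8%). By arm, the median 15 nt share of 36 other described arms was 10.9% over both libraries, from 0 to 85.8%. The share of the miR-148 family thus lay under the pool but above the median arm. Mir130a was at 84.4% (75.3 to 91.2) and 92.0% (74.0 to 99.02) of 17 nt.

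Mir148a and Mir148b differed in length too, although their sequences are the same from base 11 onwards. The 15 nt share was 5.37% (3.44 to 7.95) for Mir148a with DMSO and 21.6% (19.1 to 24.4) for Mir148b. With SB431542 it was 1.52% (0.04 to 8.16) and 21.5% (16.5 to 27.3). Mir152 stood at 16.5% (11.2 to 22.9) and 12.5% (3.51 to 29.0). The intervals of Mir148a lay under those of Mir148b in both libraries. For no member did the intervals of the 2 libraries separate.

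Shorter fragments with the same start, counted after these lengths had been seen, widened that contrast. The 14 nt form of Mir148b was its most abundant fragment:
Mir148b at 14 nt: tcagtgcaTCacag
It had 895 reads with DMSO and 173 with SB431542, against 12 and 0 at 13 nt and 207 and 51 at 15 nt. It made up 48.3% and 42.2% of the 14 to 17 nt reads from that start. The same 14 bases also occur in the pseudogenes Cyp2b26-ps and Cyp2b27-ps, so these reads cannot be given to the hairpin alone. Sequences with 1 mismatch to it, the 14 nt form of Mir152 left out, had 2 and 7 reads.

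In Mir148a the 14 nt form, which 1 other gene also holds, had 13 reads with DMSO and 0 with SB431542. In Mir152, where no other gene holds it, the 14 nt form had 51 and 12. As shares of the 12 to 17 nt reads from mature base 1, the 14 nt form was 48.0% for Mir148b, 2.90% for Mir148a and 23.1% for Mir152 with DMSO. With SB431542 the shares were 42.2%, 0% (of 68 reads) and 27.3%. The 3 members thus kept their order at 14 nt in both libraries. Mir130a and Mir130b had 1 read each at 14 nt, both with DMSO.

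**Figure D4:**
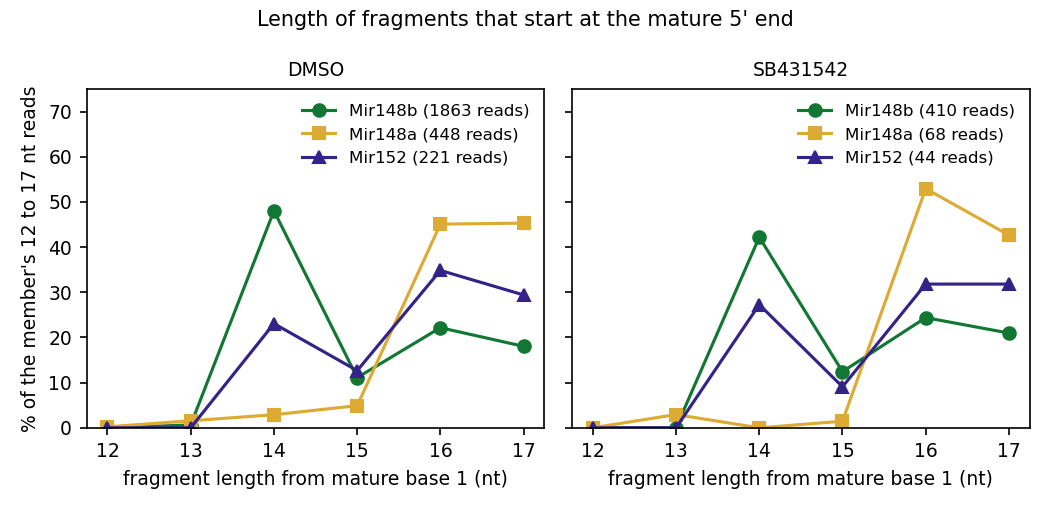
Length of fragments that start at mature base 1 of Mir148b, Mir148a and Mir152, as percent of each member's 12 to 17 nt reads (y) by length in nt (x), with DMSO at the left and SB431542 at the right. Mir148b peaks at 14 nt (48.0% and 42.2%) and Mir148a at 16 and 17 nt, in both libraries. The 14 nt sequence of Mir148b also occurs in 2 pseudogenes.

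Base composition moved with the ratios of other sequences, and its part in the member values was not tested beyond these figures. Sequences outside miRNA hairpins with 40 to 50% GC, the range of the miR-148 fragments, stood on the second scale at a median log2 of -0.44 (757 sequences). Those with 30 to 40% GC, the range of the leading Mir130a fragments, stood at -0.72 (249 sequences), and those with 60 to 70%, the range of the Mir130b loop, at -0.01 (923 sequences). With each SB431542 count divided by the median ratio of its GC range, the miR-148 family stood at -0.22 in RPM (-0.38 to -0.07) and miR-148a-3p at -0.70 (-1.04 to -0.37). Under the same correction the miR-130 family stood at 0.36 (-0.11 to 0.80). The intervals with this correction were computed on the scaled counts and so understate counting error.

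Other miRNAs found to share the seeds added little. Only RefSeq mature sequences matched to a hairpin were searched, so relatives without one would be missed. The 4 other mature sequences with the seed of miR-130, namely miR-130c, miR-721, miR-6341 and miR-6389, had 0 reads in both libraries. A further 21 of the matched mature sequences hold the core AGUGC in their seeds, among them miR-294-3p and miR-295-3p of stem cells and miR-17-5p. Of these, 12 had reads, 90 with DMSO and 21 with SB431542 in all, and 0 were described, so none could be placed past 2-fold. Among described arms with a RefSeq mature sequence, only the members had this core in the seed.

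The described arms outside the families whose ratio in RPM was nearest to the miR-148 sum were miR-433-3p (-0.40), miR-296-3p (-0.34) and the 3p side of the Mir182 hairpin (-0.38). Of the reads on that side of Mir182, 2.67% lay in the mature sequence. Nearest to the miR-130 sum were miR-674-5p (0.13), miR-290a-5p (0.14) and miR-292-5p (0.04). This likeness rests on 2 libraries.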

How the data were processed

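Total RNA of each culture was isolated with TRIzol, and 1 library per group was made with an Illumina TruSeq RNA kit, per the labels' protocols. The values deposited by the authors are raw read counts per distinct sequence, 3 to 17 nt long. The submitters' processing notes name build mm9. Their trimming, filters and alignment were not given in the sources used here. These counts were matched by exact sequence to GENCODE M21 transcripts (GRCm38), so no coordinate of the authors' build was used. Set aside were sequences also found in another class of small RNA, tRNA genes included, or in more than 5 other genes. Sequences of several hairpins were divided equally. Whole sequences of 15 to 17 nt were used, from 83.2% of 1190074 reads with DMSO and 80.1% of 645925 with SB431542. These totals are of a length class and not library depths. Each arm's ratio used a pseudocount of 0.5 read.

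The members, lists, named-arm rule (all members, their 3 leading sequences, arms with the same seed and the 3 nearest arms) and settings were chosen with earlier results of these data known. The sequence matching was tested on simulated sequences, and the intervals on simulated counts drawn independently. The assignment of matches to arms was not tested in this way. Alternatives were other totals, edgeR 4.0.16 TMM factors and DESeq2 1.42.0 size factors, a pseudocount of 5 reads, other minimum reads and lengths, no sequence set aside, reads inside mature arms only and no leading sequence. Also run were a GC correction, shared sequences left out, the DMSO library thinned, and distinct sequences after that thinning. The application of these alternatives to the differences between members, counts of 11 to 14 nt prefixes, the values without the Mir130b loop and the base 10 counts were added after the data had been seen. Python 3.11.15, numpy 2.4.6, scipy 1.17.1, matplotlib 3.10.9 and R 4.3.3 were used.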

Additional observations from a re-analysis of the deposited data

How the results depend on the processing

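The miR-148 family was lower with SB431542 in 16 of 17 alternatives: its log2 ratio was -1.28 per reads of 15 to 17 nt, -1.33 per all reads, -0.65 with edgeR TMM factors, -0.63 with DESeq2 factors and -0.57 without the 5 most abundant arms. Reads inside mature arms, shared sequences left out and the Mir130b loop left out change only the miRNA total for this family, so they could hardly move it. Counting distinct sequences after thinning of the DMSO library, the ratio of the family was 0.26. So were those of Mir148a, Mir148b and Mir152, since each member then counts only 3 sequences in each library. The miR-130 family stood at -0.80 and -0.86 on the first 2 of these scales. Of 10 alternatives for the difference of Mir148a from Mir148b, all chosen after seeing the data, 6 changed the value. Its interval lay below 0 in 5 of these (-0.92 to -0.57), and the difference was 0 for distinct sequences; the other 4 touch no read of these members. Of the 5 member arms, 3 were at least 2-fold lower per reads of 15 to 17 nt and per all reads, and 1 with TMM factors, DESeq2 factors, no 5 most abundant arms, 17 nt only, no sequence set aside or no leading sequence.

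Shares within families followed the lengths counted (DMSO, then SB431542). From 14 nt, Mir148a held 17.6% and 12.7%, Mir148b 73.6% and 78.8%, and Mir152 8.78% with DMSO. These shares include the 14 nt reads of Mir148b, which cannot be given to its hairpin alone. From 16 nt, Mir148a held 31.2% and Mir148b 57.8% with DMSO. At 17 nt only, Mir148a held 33.6% and Mir148b 55.7% with DMSO, Mir130a 73.8% and 79.3%, and Mir130b 25.2% and 20.7%. Inside mature arms, or without the Mir130b loop, Mir130a held 76.3% and 78.1%, Mir130b 22.9% and 21.9%, and 87.3% and 90.6% of the miR-130 reads were 17 nt. Without each arm's leading sequence, Mir130a held 34.9% and 22.2% and Mir130b 62.8% and 77.8%. The 17 nt share was then 70.1% and 69.7% for miR-148 and 65.1% for miR-130 with DMSO, and 72.1% of the latter's reads began at base 1. With the DMSO library thinned, or for distinct sequences, all miR-148 reads with DMSO began at base 1 (100%). For distinct sequences, Mir148a, Mir148b and Mir152 held 33.3% each in both libraries, Mir130a 33.3% in both and Mir130b 55.6% and 66.7%. Starts at base 1 were then 75% and 80% for miR-130, its 17 nt share was 50% with SB431542, and that of miR-148 was 33.3% with DMSO.

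Depth limits the miR-130 values: with 41 reads in the SB431542 library, its log2 interval in RPM spans -0.46 to 0.59. With 1 library per group no replicate could be left out. No paired analysis was possible because each group has 1 library.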
